A study of Mus musculus with 6 samples.

Results

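The 8 genes described here encode repressors of the circadian clock: the period genes Per1, Per2 and Per3, the cryptochrome genes Cry1 and Cry2, the DEC genes Bhlhe40 and Bhlhe41, and Ciart. They were taken by name from a table of 26294 genes, and all 8 were measured and had a mean value of at least 1. RNA was sequenced from calf muscle of male C57BL/6 mice aged 24 to 26 months at collection. The mice had been fed a regular diet (RD), a high-fat diet (HF) or the high-fat diet with 0.1% nobiletin (HF.NOB) for 5 to 6 months. Nobiletin (NOB) is a flavonoid from citrus peel that activates RORs, nuclear receptors that take part in the clock. Tissue was taken at Zeitgeber time 6 (ZT6), in the light phase when mice rest, and at ZT18, in the dark phase when they are active. Each of the 3 diets has 1 library at each time, 6 in all, so no condition has a replicate. The regular diet came from another maker than the high-fat feeds, and NOB was given only with the high-fat feed in these libraries, so HF against RD compares whole feeds and no library shows NOB without fat. A heat map legend for these data gives n = 3, while each column holds whole multiples of the value of 1 read, as 1 library or reads summed before scaling would. How many animals a library stands for is therefore not clear.

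The mammalian clock is a feedback loop of transcription. CLOCK and BMAL1 (encoded by Arntl) bind E-box sequences and switch on the period and cryptochrome genes, whose proteins enter the nucleus together and shut CLOCK and BMAL1 off. DEC1 and DEC2, the products of Bhlhe40 and Bhlhe41, bind the same E-boxes and repress there, and CIART, also called CHRONO, binds BMAL1 and represses it. In skeletal muscle this clock sets daily rhythms in glucose use, lipid use and the repair of fibres.

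RefSeq promoter windows on GRCm38.p6, from 250 bases before to 50 bases after a start of transcription, matched 6 of the 8 genes, with 2 windows for Per1 and 1 each for Per3, Cry1, Cry2, Bhlhe41 and Ciart. Per2 and Bhlhe40 were not matched. Both strands were searched for the E-box CACGTG, its variant CACGTT, the D-box TTATGTAA or TTACGTAA, the cyclic AMP response element TGACGTCA and the core of ROR and REV-ERB sites, AGGTCA. The windows of Ciart (chr3:95882179-95882478, minus strand), Bhlhe41 (chr6:145865371-145865670, minus strand) and Cry1 (chr10:85185005-85185304, minus strand) are shown because these genes separated the times of day in all 6 libraries. That of Per3 (chr4:151044616-151044915, minus strand) is shown because it alone of the 7 windows held a D-box. Sequences run 5′ to 3′ along the gene, with the matches in capitals.
Ciart: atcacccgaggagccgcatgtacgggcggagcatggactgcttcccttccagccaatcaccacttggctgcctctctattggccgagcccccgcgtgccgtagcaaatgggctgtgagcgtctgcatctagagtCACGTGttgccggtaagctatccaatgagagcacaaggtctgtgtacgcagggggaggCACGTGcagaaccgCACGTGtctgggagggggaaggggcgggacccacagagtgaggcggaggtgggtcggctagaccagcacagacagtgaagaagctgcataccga
Bhlhe41: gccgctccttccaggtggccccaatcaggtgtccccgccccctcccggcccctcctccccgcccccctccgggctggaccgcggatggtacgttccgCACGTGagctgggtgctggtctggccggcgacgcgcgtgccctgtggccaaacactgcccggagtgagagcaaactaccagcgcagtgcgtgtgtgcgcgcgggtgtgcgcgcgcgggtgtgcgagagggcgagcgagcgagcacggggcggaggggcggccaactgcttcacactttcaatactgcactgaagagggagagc
Cry1: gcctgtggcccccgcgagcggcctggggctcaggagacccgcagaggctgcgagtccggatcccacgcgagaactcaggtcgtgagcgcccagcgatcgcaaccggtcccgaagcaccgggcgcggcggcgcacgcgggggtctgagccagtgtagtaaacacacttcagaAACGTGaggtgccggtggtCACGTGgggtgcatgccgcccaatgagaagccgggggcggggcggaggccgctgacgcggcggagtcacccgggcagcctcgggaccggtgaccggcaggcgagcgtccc
Per3: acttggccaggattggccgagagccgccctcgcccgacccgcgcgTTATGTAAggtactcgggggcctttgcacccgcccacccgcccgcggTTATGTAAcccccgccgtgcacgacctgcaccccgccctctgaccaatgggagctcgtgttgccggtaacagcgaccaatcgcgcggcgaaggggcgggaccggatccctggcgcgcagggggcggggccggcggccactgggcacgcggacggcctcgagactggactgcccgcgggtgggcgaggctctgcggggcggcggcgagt

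Ciart held 3 E-boxes, which begin 116, 58 and 44 bases before the start site. Of all 32851 RefSeq promoter windows of this length, 7.15% held an E-box and 0.0883% held 3 or more. Bhlhe41 held 1 E-box, 153 bases before its start. Cry1 held 1 E-box 60 bases before its start and the variant box, read on the other strand as AACGTG, 79 bases before it. Per3 held 2 copies of the D-box TTATGTAA, at 205 and 158 bases, where 1.06% of all windows held at least 1 D-box and 0.0244% at least 2. The windows not shown were those of Per1 and Cry2. The upstream window of Per1 held 1 E-box and 1 ROR core site, the other held no match, and Cry2 held 1 variant box. The variant box was in 4.68% of all windows, the ROR core in 16.3% and the cyclic AMP element, found in 0 of the 7 windows, in 1.79%. No matches overlapped. A match describes the letters of the window and says nothing of binding in these muscles.

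The deposited values are reads scaled by 1 factor per library, with 23248663 to 31837501 reads on genes and 0.956 to 1.334 units for 1 read. All 12 markers of muscle fibres were above 0 in every library. The libraries differed in other transcripts. The summed value of 8 liver markers was 1591 in ZT18 HF, where none was at 0, and 1.334 to 12.002 in the others, where 5 to 7 were at 0. The summed value of 6 blood markers was 12950 in ZT6 HF.NOB and 1452 to 4884 elsewhere, and that of 5 adipocyte markers was 5325 there and 1265 to 2985 elsewhere. In ZT6 HF.NOB, folds also followed transcript length: over 11737 genes, the HF.NOB over HF fold at ZT6 had a Spearman correlation with length of -0.70, against 0.04 at ZT18. The part of these differences in the results below was not tested. For that library, each gene is therefore also set beside the 400 genes nearest to it in transcript length. In whole muscle, fewer cells of a type and less RNA per cell cannot be told apart.

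**Figure D1:**
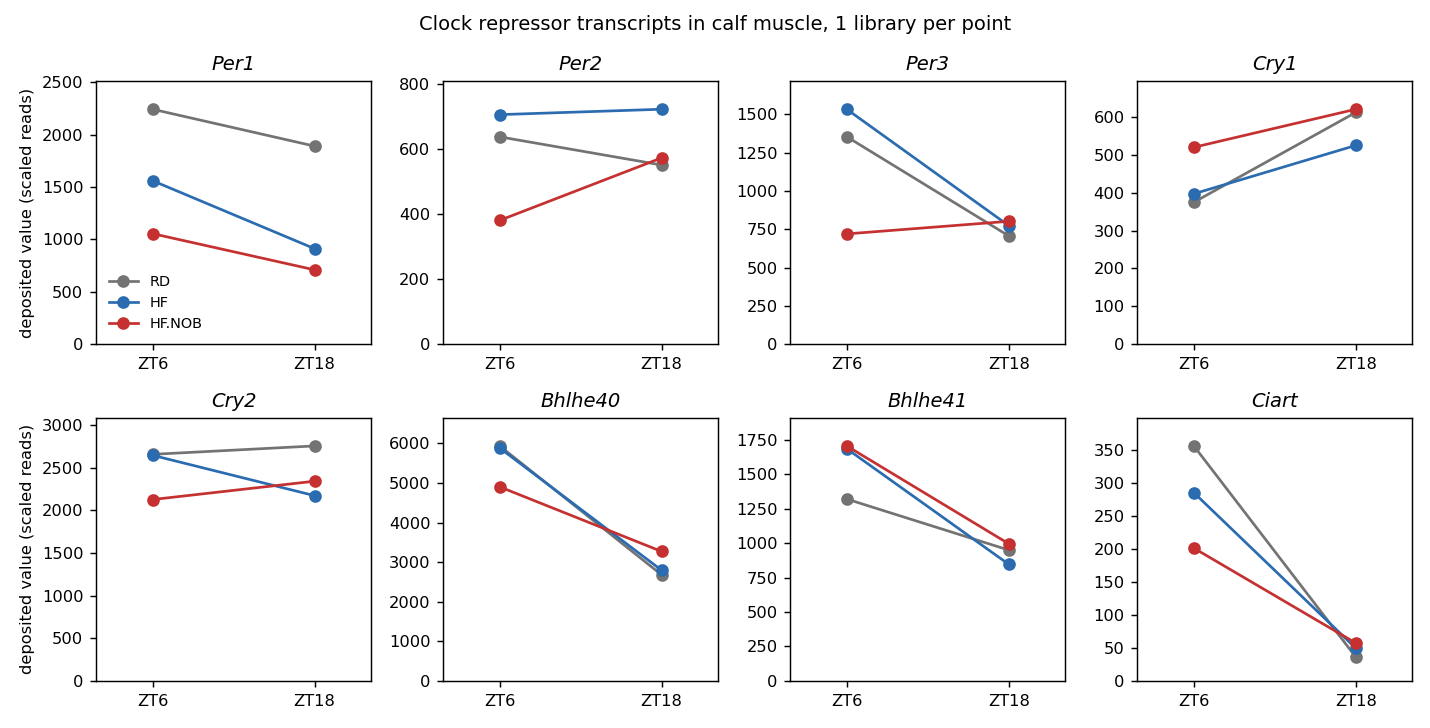
Deposited value (scaled reads, vertical axes from 0) of each of the 8 clock repressor genes at ZT6 and ZT18, with 1 point per library and lines joining the times of a diet. Ciart, Bhlhe40 and Bhlhe41 were lower in all 3 ZT18 libraries than in any ZT6 library, Cry1 was higher, and the ZT6 HF.NOB points of Per2 (380.1) and Per3 (720.1) lay below those of the other diets at that time.

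The period proteins carry the cryptochromes to the CLOCK and BMAL1 complex and set the pace of the loop. Per1 (ENSMUSG00000020893.16, GRCm38 chr11:69095217-69109960, plus strand) had ZT6 values of 2242 (RD), 1560.0 (HF) and 1055 (HF.NOB) and ZT18 values of 1889.9, 912 and 709.6 in the same order. At both times RD was highest and HF.NOB lowest, and the times overlapped. Its highest library was 3.16 times its lowest.

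Per2 (ENSMUSG00000055866.9, chr1:91415982-91459324, minus strand) had ZT6 values of 637 (RD), 705 (HF) and 380.1 (HF.NOB) and ZT18 values of 550.0, 721 and 572. The HF libraries were the highest at both times, ZT6 HF.NOB was the lowest of all, and the other 5 libraries spanned only 550.0 to 721. Per3 (ENSMUSG00000028957.11, chr4:151003652-151044665, minus strand), which is thought to be dispensable for the core loop, had ZT6 values of 1354 (RD), 1534 (HF) and 720.1 (HF.NOB) and ZT18 values of 707, 774 and 802. Its ZT6 HF.NOB library lay among the ZT18 libraries, while the other ZT6 libraries were well above them.

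The cryptochromes are the strongest repressors of CLOCK and BMAL1. Cry1 (ENSMUSG00000020038.9, chr10:85131700-85185064, minus strand) had ZT6 values of 375 (RD), 397 (HF) and 520.1 (HF.NOB) and ZT18 values of 612, 525 and 621. It was the only one of the 8 genes with every ZT18 library above every ZT6 library, and the nearest pair, ZT6 HF.NOB and ZT18 HF, was 520.1 against 525. Cry2 (ENSMUSG00000068742.10, chr2:92403646-92434043, minus strand) had ZT6 values of 2657 (RD), 2646 (HF) and 2127 (HF.NOB) and ZT18 values of 2756, 2173 and 2342. It varied least, with 1.30 times between its extreme libraries, and the times overlapped.

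Bhlhe40 (ENSMUSG00000030103.10, chr6:108660629-108666925, plus strand) had ZT6 values of 5937 (RD), 5886 (HF) and 4904 (HF.NOB) and ZT18 values of 2679.8, 2796 and 3271. The times did not overlap, and the HF.NOB libraries were the lowest at ZT6 and the highest at ZT18. Bhlhe41 (ENSMUSG00000030256.10, chr6:145858243-145865558, minus strand) had ZT6 values of 1321 (RD), 1687 (HF) and 1707 (HF.NOB) and ZT18 values of 951, 847 and 996. Here too the times did not overlap, and the RD library was the lowest at ZT6.

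Ciart (ENSMUSG00000038550.9, chr3:95878503-95882251, minus strand) had ZT6 values of 356 (RD), 285 (HF) and 201 (HF.NOB) and ZT18 values of 36.2, 49.6 and 57.4. The diets were in opposite order at the 2 times. At ZT18 the counting intervals of HF over RD and of HF.NOB over HF span 0, and that of HF.NOB over RD was not computed. The lowest ZT6 library was far above the highest ZT18 library. The ZT18 values rest on 32, 44 and 60 reads and the ZT6 values on 267, 286 and 151, so Ciart has the widest counting intervals of the 8 genes.

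Per kilobase of the longest annotated transcript, Bhlhe40 had the highest mean value (1364), followed by Cry2 (616), Per1 (299), Bhlhe41 (204), Cry1 (168), Per3 (164), Per2 (102) and Ciart (84.8). The libraries of Bhlhe40 (861 to 1907 per kilobase) lay above all those of Cry2 (535 to 693), and those of Cry2 above all those of Per1 (152 to 480.0). From Per1 downwards, neighbours in this order overlapped between libraries. Genes on the opposite strand share exon sequence with Cry2 (D930015M05Rik), Bhlhe40 (0610040F04Rik) and Bhlhe41 (Gm43909). Whether strand was used in counting is not given in the sources used here, and reads of such pairs then cannot be told apart. The values of these 3 partners were at most 40.0, 13.3 and 30.9.

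Ratios of values per kilobase between paralogues were also compared between times, and they did not all move alike. At ZT6, Cry1 over Cry2 was 0.185 (RD), 0.197 (HF) and 0.321 (HF.NOB), and at ZT18 it was 0.292, 0.318 and 0.348. The ratio was higher at ZT18 in each diet, and ZT6 HF.NOB lay within the ZT18 range. Per3 was at 2.07, 2.12 and 1.84 times Per2 at ZT6 and at 1.25, 1.04 and 1.36 times at ZT18, so here the times did not overlap. Per1 was at 4.40, 2.76 and 3.47 times Per2 at ZT6 and at 4.29, 1.58 and 1.55 times at ZT18, and the RD libraries had the highest ratio at both times. Bhlhe40 was at 5.55 to 8.85 times Bhlhe41, with both extremes in RD as measured. This ratio was lower at ZT18 in RD and HF and higher in HF.NOB. Similar lengths were not subtracted from any of these ratios, which matters for ZT6 HF.NOB. In HF.NOB over HF at ZT6, length neighbours had a median log2 fold of 0.11 for Bhlhe40 and -0.50 for Bhlhe41.

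Time of day separated 4 of the 8 genes. Ciart, Bhlhe40 and Bhlhe41 were lower in all 3 ZT18 libraries than in all 3 ZT6 libraries, and Cry1 was higher. Over 20311 genes, 5.43% were lower in that way and 5.58% higher, so 3 of 8 and 1 of 8 stood against those shares. Without the ZT6 HF.NOB library, an alternative added after seeing the data, Per3 joined the genes lower at ZT18, with 4 of 8 against 10.7% of all genes, and Cry1 remained the 1 gene higher, against 9.89%.

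Ciart had the largest difference between the times in each diet. It was 9.60-fold lower at ZT18 in RD, with a log2 fold of -3.26 (95% interval -3.88 to -2.77). Like all intervals of single libraries, it covers counting error alone and not variation between animals or libraries. Copies of a molecule also cannot be recognised without molecular identifiers, so counting error itself may be larger. Ciart was 5.66-fold lower in HF, at -2.50 (-3.02 to -2.06), and 3.47-fold lower in HF.NOB, at -1.79 (-2.27 to -1.37). Genes as short as Ciart were also lower at ZT18 in HF.NOB, with a median log2 fold of -0.41, and Ciart was at -1.39 once that median was subtracted. None of its 400 length neighbours had a lower log2 fold in any diet.

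Bhlhe40 was 2.22-fold lower at ZT18 in RD (log2 fold -1.15, interval -1.22 to -1.08), 2.10-fold lower in HF (-1.07, -1.14 to -1.01) and 1.499-fold lower in HF.NOB (-0.58, -0.65 to -0.52). Bhlhe41 was 1.39-fold lower in RD (-0.47, -0.61 to -0.34), 1.99-fold lower in HF (-0.99, -1.12 to -0.87) and 1.71-fold lower in HF.NOB (-0.78, -0.90 to -0.66). The DEC genes thus differed in which diet had the smallest difference between times, which was HF.NOB for Bhlhe40 and RD for Bhlhe41. With the median of similar lengths subtracted, the HF.NOB values were -0.50 for Bhlhe40 and -1.28 for Bhlhe41, a long transcript whose length neighbours had a median log2 fold of 0.51.

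Per3 was 1.91-fold lower at ZT18 in RD (log2 fold -0.94, interval -1.08 to -0.79) and 1.98-fold lower in HF (-0.99, -1.12 to -0.86). In HF.NOB it was at 0.16 (-0.0018 to 0.31) as measured and at -0.30 with similar lengths subtracted. Per1 was lower at ZT18 in each diet, with log2 folds of -0.25 (-0.35 to -0.15) in RD, -0.77 (-0.90 to -0.65) in HF and -0.57 (-0.72 to -0.43) in HF.NOB. Per2 had log2 folds of -0.21 (-0.40 to -0.026) in RD, 0.03 (-0.12 to 0.19) in HF and 0.59 (0.38 to 0.80) in HF.NOB, and the last was 0.18 with similar lengths subtracted.

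Cry1 was higher at ZT18, with log2 folds of 0.71 (0.50 to 0.92) in RD, 0.40 (0.21 to 0.60) in HF and 0.25 (0.072 to 0.44) in HF.NOB, the last being 0.38 with similar lengths subtracted. Cry2 had log2 folds of 0.05 (-0.033 to 0.14) in RD, -0.28 (-0.37 to -0.20) in HF and 0.14 (0.047 to 0.23) in HF.NOB. The paralogues therefore parted in RD and HF, where Cry1 lay above 94.5% or more of its length neighbours and Cry2 between 6.75% and 61.25%.

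At a 1.5-fold threshold, 1 of the 8 genes was higher and 3 were lower at ZT18 in RD, where 11.3% of all genes were higher and 12.2% lower. In HF, 0 were higher and 5 lower, against 12.2% and 10.2%. In HF.NOB, 1 was higher and 2 were lower, against 23.4% and 21.4%. With similar lengths subtracted, Per2 was no longer among the higher and Per1 joined Bhlhe41 and Ciart, giving 0 higher and 3 lower against 21.7% and 12.2% of 20198 genes. The 8 genes had a median log2 fold of -0.36 in RD and -0.88 in HF. Their median in HF.NOB was -0.22 as measured and -0.40 with similar lengths subtracted, where the medians of all genes were -0.012, 0 and -0.0097 in the same order.

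**Figure D2:**
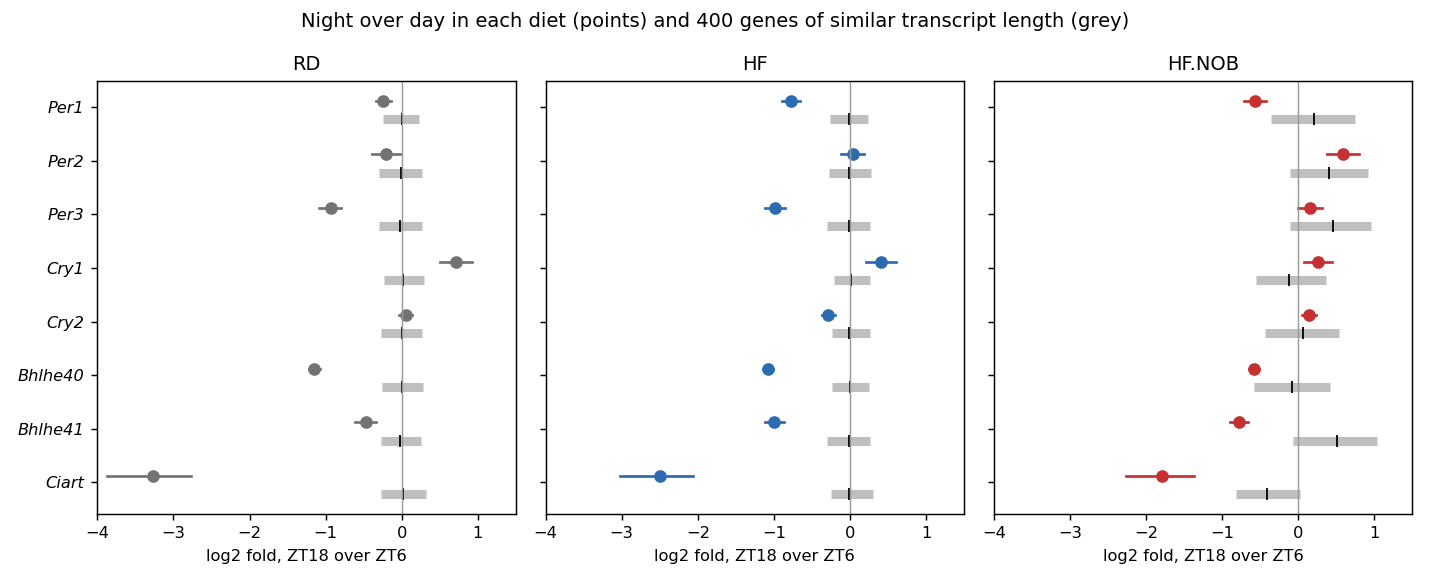
Log2 fold of ZT18 over ZT6 (horizontal axes) for each gene in RD, HF and HF.NOB, as points with 95% counting intervals, above the 10th to 90th percentile (grey bar) and median (tick) of the 400 genes of nearest transcript length. Ciart, Bhlhe40, Bhlhe41 and Per1 lay to the left of the grey bar in each diet, though Per1 in RD and Bhlhe40 in HF.NOB were only at its edge. Per3 lay to the left in RD and HF but not in HF.NOB, and Cry2 only in HF, while Cry1 lay to the right in RD and HF.

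The limma fit took diet and time as additive terms over the 6 libraries, with the diets standing as replicates of a time and 2 residual degrees of freedom, so that differences in response between diets count as error. At an adjusted p of 0.05 over 20311 genes it called 1 gene, Dbp, for time of day (0.00492% of genes), and 0 of the 8 repressors. At an unadjusted p of 0.05 it held 755 genes and 6 of the 8. At an adjusted p of 0.05, edgeR called 2 genes with 0 of the 8, and DESeq2 called 26 with 2 of the 8. Fitted log2 folds of ZT18 over ZT6, with limma's 95% intervals, were -2.52 (-3.21 to -1.83) for Ciart with an adjusted p of 0.311, -0.94 (-1.31 to -0.56) for Bhlhe40 with 0.705 and -0.75 (-1.11 to -0.39) for Bhlhe41 with 0.848. Those of Per3 (-0.59, -1.15 to -0.030), Per1 (-0.53, -0.89 to -0.17) and Cry1 (0.45, 0.083 to 0.82) also had intervals on 1 side of 0, with an adjusted p of 0.848 each. Per2 (0.14, -0.30 to 0.58) and Cry2 (-0.03, -0.38 to 0.31) had intervals on both sides of 0.

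The calls depended on which libraries were fitted. Without both HF.NOB libraries, limma called Cry1 higher at ZT18, as 1 of 8 against 0.625% of all genes, and Ciart, Bhlhe40, Per3 and Bhlhe41 lower, as 4 of 8 against 0.320%. That fit has 4 libraries and 1 residual degree of freedom, treats RD and HF as replicates of a time, and gave fitted log2 folds of -2.88 for Ciart (adjusted p 5.63e-05), -1.11 for Bhlhe40 (2.20e-05), -0.96 for Per3 (0.000182), -0.73 for Bhlhe41 (0.0111) and 0.55 for Cry1 (0.0416). Leaving out ZT6 HF.NOB or ZT18 HF.NOB alone gave the same folds and 5 calls, since either way 1 HF.NOB library carries no contrast of times. Per1 was at -0.51 with an adjusted p of 0.0719 without both. Without ZT6 RD or without ZT18 RD, limma called only Ciart of the 8 (fitted log2 fold -2.15, adjusted p 0.0455 and 0.0162), where 0.00985% of genes were called lower in either fit, and without ZT6 HF or ZT18 HF it called 0 of the 8. On recovered reads of all 6 libraries, DESeq2 called Ciart (adjusted p 9.21e-09) and Bhlhe40 (0.00754) lower, as 2 of 8 against 0.0529% of 13223 genes.

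The high-fat diet was set against the regular diet at each time. Per1 was the repressor with the largest difference: it was 1.44-fold lower in HF than in RD at ZT6 (log2 fold -0.52, interval -0.62 to -0.42) and 2.07-fold lower at ZT18 (-1.05, -1.17 to -0.93). At ZT6 its log2 fold was below that of all but 2.5% of its 400 length neighbours, and at ZT18 of all but 0.25%. Per2 was higher in HF, at 0.15 (-0.023 to 0.32) and 0.39 (0.22 to 0.56), and so was Per3, at 0.18 (0.064 to 0.30) and 0.13 (-0.028 to 0.29).

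Cry1 had HF over RD log2 folds of 0.08 (-0.14 to 0.31) at ZT6 and -0.22 (-0.40 to -0.040) at ZT18. Cry2 had -0.01 (-0.090 to 0.079) and -0.34 (-0.43 to -0.26). Bhlhe40 had -0.01 (-0.069 to 0.044) and 0.06 (-0.021 to 0.14), with both intervals spanning 0. Bhlhe41 had values of opposite sign, 0.35 (0.24 to 0.47) at ZT6 and -0.17 (-0.31 to -0.022) at ZT18. Ciart had -0.32 (-0.57 to -0.074) at ZT6 and 0.44 at ZT18, where a difference was not detectable at this depth (-0.24 to 1.16).

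At 1.5-fold, 0 of the 8 genes were higher or lower in HF than in RD at ZT6, against 12.3% of all genes higher and 11.6% lower. At ZT18, 0 were higher and 1, Per1, was lower, against 15.7% and 11.9%. The medians of the 8 were 0.04 at ZT6 and -0.05 at ZT18. Over both times, limma called 0 genes (0%) for HF against RD, with 847 at an unadjusted p of 0.05, edgeR called 0 and DESeq2 called 29, and each tool called 0 of the 8. Per1 had a fitted log2 fold of -0.79 (-1.23 to -0.34, adjusted p 0.893), and it was lower in HF in both pairs of libraries. Without both HF.NOB libraries, limma called Per1 lower, as 1 of 8 against 1.56% of all genes, with the same fitted fold and an adjusted p of 0.00353. Without ZT6 HF.NOB or ZT18 HF.NOB alone it was also called. Arntl, the activator gene, was at -0.67 over both times in the fit of all 6 libraries (adjusted p 1).

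The drug comparison set HF.NOB against HF, and it shares its HF libraries with the diet comparison. At ZT6, the period genes were lower in HF.NOB: Per3 2.13-fold (log2 fold -1.09, interval -1.24 to -0.95), Per2 1.85-fold (-0.89, -1.09 to -0.69) and Per1 1.48-fold (-0.56, -0.69 to -0.44). Their length neighbours were lower too, with medians of -0.45, -0.42 and -0.22, and the values with these subtracted were -0.64 for Per3, -0.47 for Per2 and -0.34 for Per1. All but 7.25% of the length neighbours of Per3 had a higher log2 fold, all but 11% of those of Per2 and all but 16.5% of those of Per1.

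Ciart was 1.42-fold lower in HF.NOB at ZT6 (-0.50, -0.80 to -0.21), while short transcripts such as its own had a median log2 fold of 0.41, so it was at -0.91 with these subtracted. Bhlhe41, a long transcript, was at 0.02 (-0.089 to 0.12) and at 0.52 with similar lengths subtracted. Bhlhe40 was at -0.26 (-0.32 to -0.20) and -0.37, Cry2 at -0.31 (-0.41 to -0.22) and -0.26, and Cry1 at 0.39 (0.18 to 0.59) and 0.25. The subtraction changed the sign of no repressor in this comparison.

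At ZT18, where folds did not follow length, measured differences were smaller for each gene but Bhlhe41, which was at 0.02 at ZT6 and 0.23 at ZT18. With similar lengths subtracted, Per1 was at -0.34 at ZT6 and -0.38 at ZT18. Per1 was 1.28-fold lower in HF.NOB than in HF (log2 fold -0.36, -0.51 to -0.22) and Per2 1.26-fold lower (-0.33, -0.50 to -0.17), below all but 5.75% and 6.25% of their length neighbours. Per3 was at 0.05 (-0.096 to 0.20). The other 5 genes had higher values in HF.NOB, with log2 folds of 0.24 (0.067 to 0.42) for Cry1, 0.11 (0.022 to 0.20) for Cry2, 0.23 (0.15 to 0.30) for Bhlhe40, 0.23 (0.097 to 0.37) for Bhlhe41 and 0.21 (-0.37 to 0.81) for Ciart. Per1 and Per2 were thus lower, and Cry1 higher, in HF.NOB at both times.

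**Figure D3:**
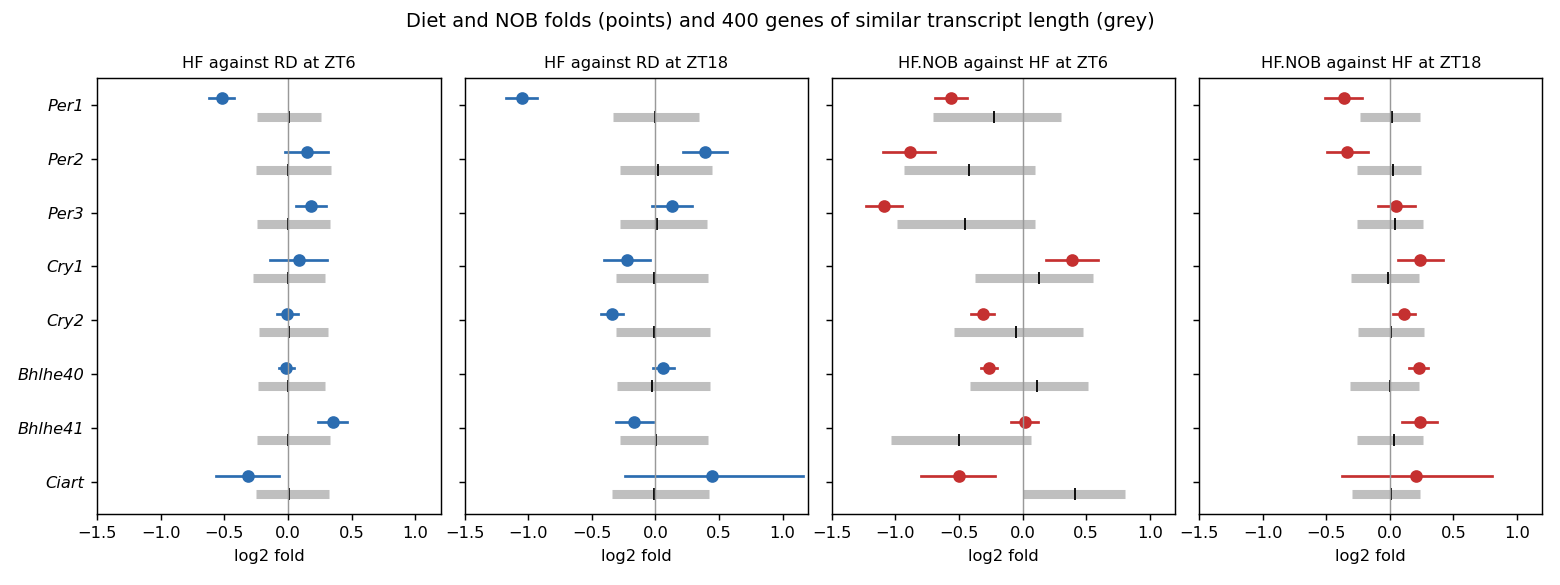
Log2 fold (horizontal axes) of HF over RD and of HF.NOB over HF at each time for the 8 genes, as points with 95% counting intervals, above the 10th to 90th percentile (grey bar) and median (tick) of the 400 genes of nearest transcript length. Per1 was the only gene outside its grey bar on the same side in both HF over RD panels, and in the HF.NOB over HF panel of ZT6 the grey bars themselves shift with length, from a median of -0.50 for Bhlhe41 to 0.41 for Ciart.

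At 1.5-fold, 0 of the 8 genes were higher and 2 were lower in HF.NOB than in HF at ZT6, against 20.9% and 22.4% of all genes. With similar lengths subtracted, the 2 lower genes were Per3 and Ciart instead of Per3 and Per2, against 11.1% of all genes higher and 21.3% lower. At ZT18, 0 were higher or lower, against 9.47% and 12.5%. The medians were -0.41 at ZT6 and 0.16 at ZT18. Over both times, limma and edgeR called 0 genes (0%), with 618 at an unadjusted p of 0.05 in limma, and DESeq2 also called 0. The fitted log2 folds furthest from 0 were those of Per2 (-0.61, -1.15 to -0.074), Per3 (-0.52, -1.20 to 0.17) and Per1 (-0.46, -0.91 to -0.019), with an adjusted p of 0.780 each in limma. Without ZT6 HF.NOB, Per2 was at -0.27, Per3 turned to 0.04 and Per1 was at -0.49, and limma called 0 of the 8. Without ZT18 HF.NOB, limma called 5 of the 8 (Cry1 higher, against 14.5% of all genes, and Per1, Per2, Per3 and Bhlhe40 lower, against 14.3%), but that fit rests on the ZT6 HF.NOB library alone, which is assumed to vary like the others.

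The remaining genes of the loop were listed by role. Of 3 activators, 0 passed limma's test for time of day. Arntl had a fitted log2 fold of 0.95 (adjusted p 0.705), Clock of 0.35 and Npas2 of -0.01, and Clock was at -0.03 without both HF.NOB libraries. Of 5 ROR and REV-ERB receptors, which drive and repress Arntl, 0 passed, with fitted values of -1.71 for Nr1d1 (REV-ERBα), -0.46 for Nr1d2 (REV-ERBβ) and -0.64 for Rorb, whose values were at most 8.001. Of 4 D-box regulators, Dbp fell, with a fitted log2 fold of -2.57 (adjusted p 0.00453), while Nfil3, which competes with DBP for D-boxes, was at 1.70 and Hlf at -0.27. Dbp had ZT6 values of 1983 (RD), 2234 (HF) and 1878 (HF.NOB) and ZT18 values of 326, 398 and 304, so its times did not overlap. Dbp was not called without ZT6 HF or without ZT18 HF, where limma called 0 genes and the smallest adjusted p was 0.383 and 0.389.

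Of 18 kinases, phosphatases and ubiquitin ligases that act on PER and CRY proteins, 0 passed, with a median of 0.00. The largest fitted values were in Fbxl21 (0.69), whose values were at most 12.4, Usp2 (-0.29) and Ppp1ca (-0.19). Ppp1ca was at -0.08 without both HF.NOB libraries. Of 14 partners of the PER and CRY complexes, 0 passed, with a median of 0.04, and Ncor1 was at 0.43 and Sap18 at -0.27. Ncor1 was at -0.0028 without both HF.NOB libraries. The median of the 8 repressors in the same fit was -0.56. Without both HF.NOB libraries, limma called Arntl and Nfil3 higher and Nr1d1, Nr1d2, Dbp and Hlf lower at ZT18, and 0 of the 18 and 0 of the 14. That fit gave 0.95 for Arntl, -2.09 for Nr1d1 and 2.08 for Nfil3.

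**Figure D4:**
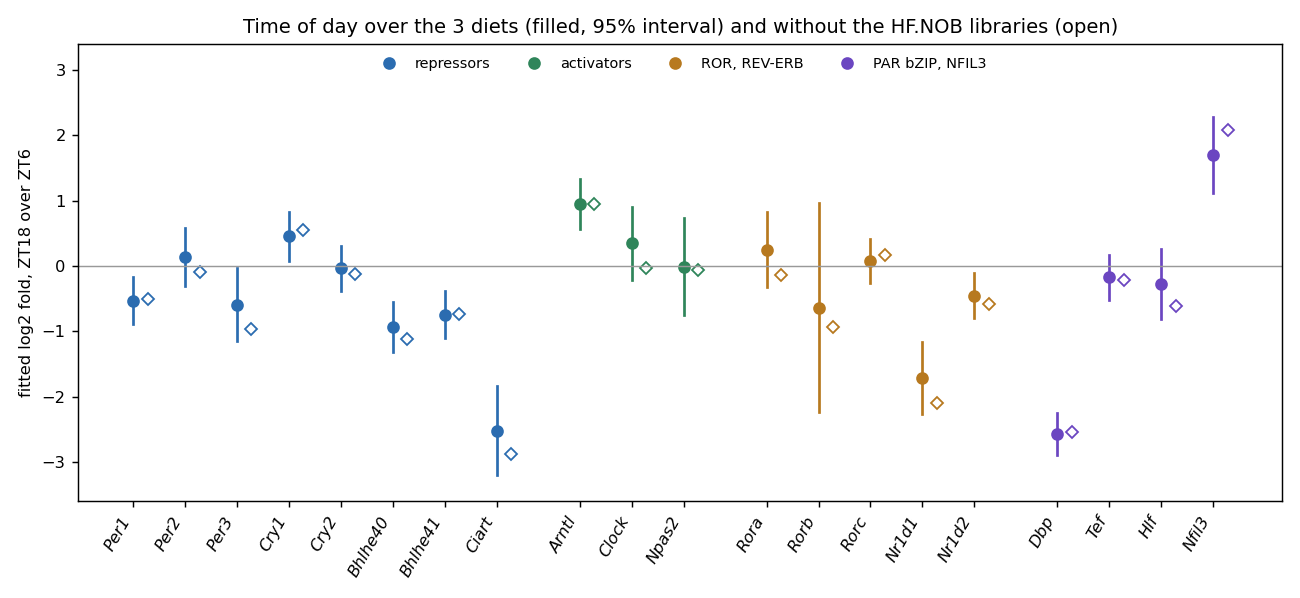
Fitted log2 fold of ZT18 over ZT6 (vertical axis) from limma for the 8 repressors and 12 other clock genes, filled with 95% intervals for all 6 libraries and open for the fit without both HF.NOB libraries. Ciart (-2.52), Dbp (-2.57) and Nr1d1 (-1.71) were the lowest, Nfil3 (1.70) was the highest, and the signs of Per2, Clock and Rora changed between the fits.

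The genes whose log2 values over the 6 libraries were most like those of each repressor were ranked by Pearson's r among the 11159 protein-coding genes whose mean value reached 50. These values are descriptions of 6 shared libraries, among them the one with the trend over transcript length. Bhlhe40 and Ciart were each other's closest gene (r = 0.99), and both were followed by Nmrk2, a nicotinamide riboside kinase of muscle, and Hs3st5, a heparan sulfate sulfotransferase. Bhlhe41 was most like Colq, the collagen tail that anchors acetylcholinesterase at the neuromuscular junction, Tcf7l2, a transcription factor of Wnt signalling, and Micu3, a regulator of mitochondrial calcium uptake. Per3 was most like Rps6kc1, the co-repressor scaffold Sin3a and 1810013L24Rik. Per1 was most like Selp, the P-selectin of platelets and endothelium, Gnai3 and Arhgap17.

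Genes most like Cry1 included Zbtb45 and Rnf122, and Cry2 was most like Dpy19l3, Dynlt1c and Mta2, a subunit of the NuRD complex. Per2 was most like Usp22, Slc22a23 and Slc5a6. The number of genes with r above 0.9 was 26 for Per1, 44 to 75 for Cry1, Cry2, Per3, Bhlhe40, Bhlhe41 and Ciart, and 569 for Per2. Among the repressors themselves, r was 0.89 between Bhlhe40 and Bhlhe41, -0.90 between Cry1 and Per3, -0.89 between Cry1 and Ciart, and 0.16 between Per1 and Per2.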

How the data were processed

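Total RNA of frozen calf muscle was sequenced in 6 libraries. The submitters' processing notes, like the authors' methods, give alignment by TopHat2 2.0.12 to the mm10 genome and gene abundance by Cufflinks 2.2.1. The deposited values form a normalized signal: divided by the value of 1 read, 100% were whole within 0.001, so they are reads times 1 factor per library. Which tools counted and scaled the reads is not stated in the labels or methods. Such values had been planned for, and they were used unchanged.

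Names, positions and lengths came from GENCODE M21 on GRCm38 by Ensembl identifier without version (99.4% of 26294 genes matched). Folds are differences of log2(value + 1) and were taken for 20311 genes whose mean value reached 1. Similar lengths are the 400 genes nearest in longest transcript length among those whose mean value reached 50. Intervals of single folds are exact 95% intervals of the ratio of 2 read counts. Fits used limma 3.58.1 with a mean trend, time and diet as additive terms, two-sided tests and Benjamini-Hochberg adjustment. With 1 library per condition, p-values rest on how far libraries depart from additive diet and time terms. That spread need not be the one between animals. Limma also shares variance over genes, so p-values from fits with 1 or 2 residual degrees of freedom draw largely on other genes. A diet left with 1 library is assumed to vary like the others. Alternatives were edgeR 4.0.16 and DESeq2 1.42.0 on recovered reads, median-ratio, TMM and total scaling, pseudocounts of 0.1 and 5, no filter or a mean of at least 10, a 2-fold threshold, subtraction of similar lengths, and leaving out libraries. For time of day edgeR called 2 genes and DESeq2 called 26.

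The 8 genes, the gene lists and the promoter motifs were chosen with earlier results of these data known. Named besides the 8 were the 3 genes of each list with the largest fitted time fold, any that passed a test, and the 3 protein-coding genes most like each repressor. Some genes that this rule names are not reported here. Dbp's values, Arntl's diet value and the marker sums were added after their values were seen. Steps were tested on simulated data. R 4.3.3 ran the fits, and Python 3.11.15 the rest, with pandas 2.3.3 and NumPy 2.4.6 for tables, SciPy 1.17.1 for intervals and Matplotlib 3.10.9 for plots.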

Additional observations from a re-analysis of the deposited data

Results flagged for a closer look

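Of the comparisons of single libraries, 5 pairs had opposite signs with both counting intervals on 1 side of 0. With 1 library per condition, these differences were not tested. Per2 was lower at ZT18 than at ZT6 in RD (log2 fold -0.21) and higher in HF.NOB (0.59). Cry2 was lower at ZT18 in HF (-0.28) and higher in HF.NOB (0.14). Bhlhe41 was higher in HF than in RD at ZT6 (0.35) and lower at ZT18 (-0.17). In HF.NOB against HF, Cry2 was lower at ZT6 (-0.31) and higher at ZT18 (0.11), and Bhlhe40 was lower at ZT6 (-0.26) and higher at ZT18 (0.23). The ZT6 HF.NOB library, whose folds follow transcript length, enters 4 of the 5 pairs. With similar lengths subtracted, the HF.NOB values between times were 0.18 for Per2 and 0.08 for Cry2, and those of HF.NOB against HF at ZT6 were -0.26 for Cry2 and -0.37 for Bhlhe40.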

How the results depend on the processing

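For time of day, 0 of the 8 repressors were called by limma on all 6 libraries, 2 by DESeq2 and 5 without both HF.NOB libraries, with 0 to 5 when a library was left out. Over all genes the 1 call became 2 with edgeR, 26 with DESeq2, 2 with similar lengths subtracted, 192 without both HF.NOB libraries and 0 to 196 without a library. For HF against RD, 0 repressors became 1 without both HF.NOB libraries and 0 to 1 without a library, and 0 genes became 29 with DESeq2, 5 with similar lengths subtracted, 697 without both HF.NOB libraries and 0 to 700 without a library. For HF.NOB against HF, leaving out a library gave 0 to 5 repressors and 0 to 5844 genes. The fit without both HF.NOB libraries has no value for that comparison. The fitted time fold of Per2 turned to -0.088 without both HF.NOB libraries and was -0.088 to 0.31 without a library, and that of Cry2 was -0.12 to 0.096, above 0 without ZT6 HF or ZT18 HF. The fitted HF.NOB over HF fold of Per3 was -1.08 to 0.039, above 0 without ZT6 HF.NOB. The median time fold of the 8 in HF.NOB moved to -0.40 with similar lengths subtracted. Median-ratio and TMM scaling, the other pseudocounts and the other filters changed no call of the 8. Total scaling was applied to single-library folds and their medians, not to the fits. No paired analysis was possible because each condition has 1 library and the labels carry no shared replicate number. Of 336 single-library folds under other settings, 17 moved beyond their counting interval. Depth limits Ciart at ZT18 (32 to 60 reads). The causes were not tested.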

Other observations

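Per1 is also a target of the glucocorticoid receptor, and genes induced by glucocorticoids were listed beside it. Fkbp5, a co-chaperone of the receptor, had ZT6 values of 1324 (RD), 719.6 (HF) and 1659 (HF.NOB) and ZT18 values of 4399.9, 1959 and 1515. It was lower in HF than in RD at both times, like Per1, and unlike Per1 it was above HF in the HF.NOB library of ZT6. The list was split in that comparison, with log2 folds of 1.204 for Fkbp5, 0.76 for Tsc22d3 and 0.44 for Sgk1 against -0.95 for Zbtb16, -0.74 for Klf9 and -0.56 for Per1. Folds there follow transcript length, and the part of length in this split was not tested. Similar lengths were subtracted for Per1 alone of the list, which gave -0.34. Of the 6 genes of the list, Per1 included, limma on all 6 libraries called 0 for HF against RD, with 3 at an unadjusted p of 0.05 and a median of -0.46. Without both HF.NOB libraries it called 4 of the 6 lower in HF, against 1.56% of all genes: Fkbp5 (-1.02, adjusted p 0.000233), Per1 (-0.79, 0.00353), Sgk1 (-0.58, 0.00255) and Tsc22d3 (-0.34, 0.0339). For time of day that fit called Fkbp5, Tsc22d3 and Zbtb16 higher at ZT18, against 0.625% of all genes, with fitted log2 folds of 1.59, 0.59 and 0.95, the direction opposite to that of Per1 (-0.51). The list was chosen with earlier results known, and nothing about hormone levels was measured.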
